A study of Schizosaccharomyces pombe with 15 samples.

Results

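The subtelomeric protein-coding genes of fission yeast are the genes of the outermost 100 kb at both ends of chromosomes I and II. They were taken as the genes with an identifier of the SPA or SPB series that start below base 100000 or end within 100000 bases of the last gene end that the deposited tables list for that chromosome, at 5579133 on I and 4532899 on II. RNA genes and 5 protein-coding genes (SPAC1F8.01, SPAC1F8.03c, SPBC1348.14c, SPAC977.16c and SPBPB21E7.07) were left out, and 134 of the 6998 genes listed remained. They lie in 4 windows, with 35 genes at the left and 33 at the right end of chromosome I and 34 at the left and 32 at the right end of chromosome II. No measured level entered this choice. The genes were followed by RNA sequencing in strain JY450 of Schizosaccharomyces pombe, labelled wild type, in 5 groups of 3 biological replicates: atmospheric-pressure plasma with collection at 10, 15 or 30 min after it, H2O2, and no irradiation. Plasma is an ionised gas that delivers reactive oxygen and nitrogen species, and H2O2 is hydrogen peroxide. Cells in YE medium were spotted on a membrane filter on agar, in logarithmic or stationary phase. The sources used here state neither the phase of each library nor how much plasma or H2O2 was given, nor for how long H2O2 acted. Library totals ran from 14691752 to 23232575 counts, and libraries are named by the letters a, b and c of the deposited columns.

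Subtelomeres are the chromosome stretches next to the telomeres, the protective caps of chromosome ends. In fission yeast their outer part is packed in heterochromatin, which keeps most of its genes weakly transcribed, and the sequences of the different ends are partly copies of each other. The genes there code largely for nutrient transporters, enzymes of sugar, amino acid and nitrogen use, cell surface proteins and short membrane proteins of unknown role, many of which are used under starvation or stress rather than during growth in rich medium.

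Promoter sequences, taken from RefSeq (assembly ASM294v3) for the genes on which the results turn, are given 5′ to 3′ on the strand of the gene. The first 5 are stretches of 46 bases before the starts of 3 neighbours at the left end of chromosome II and of mel1, all of which were higher after plasma and H2O2. They are shown because each holds the word TTACGT, part of the site of the oxidative stress factor Pap1, which is in capitals and reads ACGTAA where it lies on the other strand. They were picked among raised genes that hold the word. In the whole set it was no more frequent in raised genes. It stood in 29.7% of the 37 promoters of genes higher at 30 min and in 33.7% of the 83 others.
SPBPB21E7.02c, outer copy of the word, II:61323-61368, minus strand: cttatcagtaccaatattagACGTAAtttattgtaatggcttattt
SPBPB21E7.02c, inner copy of the word, II:61292-61337, minus strand: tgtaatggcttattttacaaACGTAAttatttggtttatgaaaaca
SPBPB21E7.11, II:63042-63087, minus strand: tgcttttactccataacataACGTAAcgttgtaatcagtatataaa
cmt2, II:65601-65646, minus strand: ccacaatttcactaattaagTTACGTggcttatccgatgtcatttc
mel1, I:5499681-5499726, plus strand: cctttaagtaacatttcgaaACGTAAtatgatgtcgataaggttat

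The next 3 are the 250 bases before the starts of a pair of similar aldo-keto reductase genes, whose promoters are not alike, and of the asparaginase gene SPAC977.12, whose promoter is the same letter for letter as that of its copy SPBPB8B6.05c (II:55568-55817, minus strand). Capitals mark TGACGT, the core of the site of the stress factor Atf1, which only the second of the 3 holds.
SPAC750.01, I:5555424-5555673, plus strand: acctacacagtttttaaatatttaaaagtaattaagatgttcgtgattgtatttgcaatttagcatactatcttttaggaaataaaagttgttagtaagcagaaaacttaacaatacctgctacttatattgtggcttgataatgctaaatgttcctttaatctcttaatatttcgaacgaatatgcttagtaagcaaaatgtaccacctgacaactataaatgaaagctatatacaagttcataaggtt
SPAC977.14c, I:60843-61092, minus strand: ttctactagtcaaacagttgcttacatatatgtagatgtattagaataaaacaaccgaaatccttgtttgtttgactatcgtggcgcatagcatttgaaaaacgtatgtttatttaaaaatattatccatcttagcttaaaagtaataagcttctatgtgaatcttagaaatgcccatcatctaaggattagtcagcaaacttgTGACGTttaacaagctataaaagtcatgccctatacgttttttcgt
SPAC977.12, I:56242-56491, plus strand: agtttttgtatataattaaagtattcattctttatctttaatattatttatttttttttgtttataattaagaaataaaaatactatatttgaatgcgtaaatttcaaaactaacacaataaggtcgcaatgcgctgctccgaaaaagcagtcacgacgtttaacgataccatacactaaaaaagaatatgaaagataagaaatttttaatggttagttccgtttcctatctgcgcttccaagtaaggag

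Most of these genes had few counts for their length. Of the 134, 64 have a copy of at least 90% identity in the set. Reads that map to several places are not counted at the authors' settings, so the levels of such copies may be understated. The median level per length over all 134 was 0.960 CPM per kb 10 min after plasma, 1.30 at 15 min, 1.05 at 30 min, 0.977 after H2O2 and 0.836 without irradiation, where CPM is the count scaled to the size of its library after TMM correction. The 5007 other protein-coding genes had a median of 32.4 CPM per kb without irradiation. Of the 134 genes, 92 (68.7%) passed the filter on low counts and were tested, against 88.0% of the other protein-coding genes. The other 42 had mean counts of at most 7.53 per library. Among them 13 had no count in any library, and 5 of these lie wholly inside another annotated gene, and the counting assigns to neither gene a read that overlaps both. A count of 0 allows up to 0.129 to 0.204 CPM in 1 library, or 3 counts of its total. The annotation calls 13 of the 134 pseudogenes, of which 6 were tested.

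**Figure D1:**
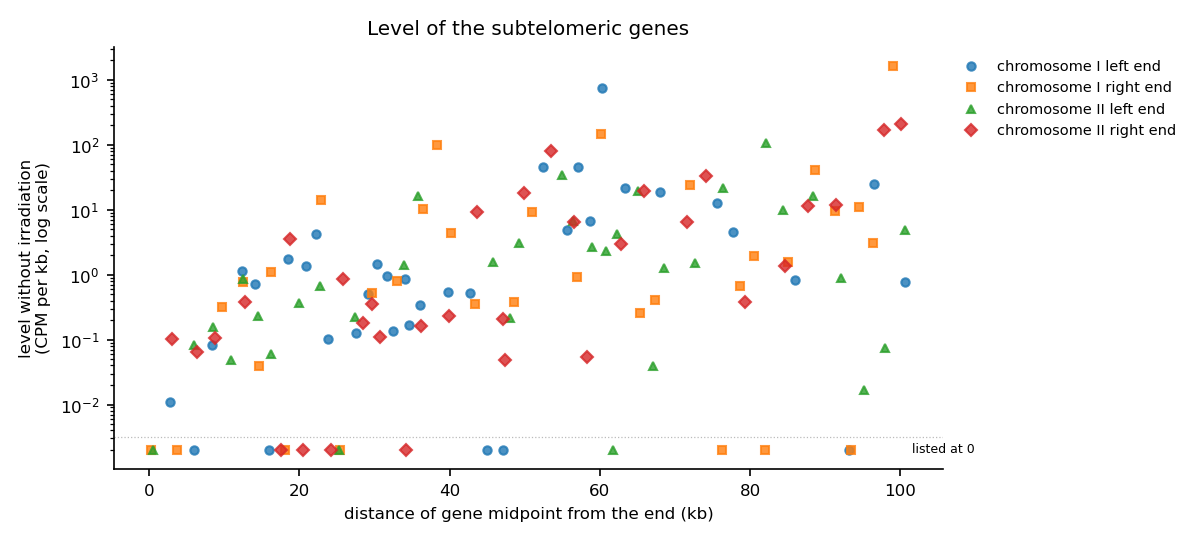
Level of each of the 134 genes without irradiation (mean of 3 libraries, CPM per kb, logarithmic axis) by the distance of its midpoint from the chromosome end as listed. Genes at 0 in the 3 libraries are drawn at the bottom. The median was 0.102 CPM per kb within 25 kb of the end and 6.57 CPM per kb at 50 to 75 kb.

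The level by counted reads was lowest next to the ends. How far uncounted reads of near-identical copies lower these values was not tested. Without irradiation the median was 0.102 CPM per kb for the 35 genes within 25 kb of the end, 0.369 for 38 genes at 25 to 50 kb, 6.57 for 30 genes at 50 to 75 kb and 3.85 for 28 genes at 75 to 100 kb, while the midpoints of 3 genes lay beyond. The outermost gene of the left end of chromosome I, tlh1, and its copy tlh2 at the right end of chromosome II code for RecQ-type DNA helicases and are 99.98% identical, so most reads cannot be assigned to 1 of them. Their annotated copies stood at 0.0612 ± 0.106 CPM (tlh1, too few counts for a test) and 0.612 ± 0.221 CPM (tlh2) without irradiation (SD, n = 3 each). For tlh2 the values were 0.595, 0.608 and 0.803 CPM at 10 min, 0.526, 0.464 and 0.472 CPM at 15 min, 0.892, 0.884 and 0.36 CPM at 30 min and 0.854, 0.387 and 1.01 CPM after H2O2. Without irradiation tlh2 had 0.643, 0.815 and 0.377 CPM. These ranges overlap throughout, and no treatment passed the test, also at an unadjusted p or with DESeq2 (0 of 4 each, edgeR adjusted p = 0.857, 0.489, 0.696 and 0.598 in the same order).

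3 genes made up 57.9% of the scaled counts of the whole set: SPAC977.14c, an aldo-keto reductase, SPAC922.04, of unknown role, and yhb1. The share of all counts that fell on the 134 genes was 0.475% ± 0.0402 at 10 min, 0.573% ± 0.0226 at 15 min, 0.766% ± 0.0580 at 30 min and 0.692% ± 0.0133 after H2O2, against 0.457% ± 0.0157 without irradiation (SD, n = 3 each). The 3 libraries of 15 min, 30 min and H2O2 all lay above the 3 libraries without irradiation, and those of 10 min overlapped them. Much of this rise lay with SPAC977.14c and yhb1, so the share does not describe the set as a whole. In library a of 30 min these 2 genes had 41978 and 21995 of the 138838 counts of the set. In library a without irradiation they had 19489 and 7065 of 97206.

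In RNA of whole cultures, fewer cells that use a gene and less RNA of it per cell cannot be told apart. Compared with no irradiation, more of the tested genes were higher than lower after every treatment. The 4 comparisons share the 3 untreated libraries and are therefore not independent. At 10 min 24 of 92 were higher and 12 lower at an adjusted p under 0.05 (edgeR quasi-likelihood test, Benjamini-Hochberg over all 5214 genes tested), where 21.9% of all genes tested were higher and 17% lower. At 15 min 40 were higher and 11 lower, against 27.1% and 24.8% of all genes, at 30 min 41 and 12, against 31% and 29%, and after H2O2 40 and 7, against 28.5% and 25.6%. At 10 min the share of higher genes, 26.1%, was thus near that of all genes. The 3 later shares were 43.5%, 44.6% and 43.5%. Among other protein-coding genes of the same level (20 bins, described next) 16.6%, 20.3% and 19.4% were higher at the 3 times and 18.9% after H2O2. 7 of the 92 genes reached the count minimum in too few libraries without those of 1 group, and 2 of the higher genes at 15 min, 1 at 30 min and 1 after H2O2 were tested only because of the libraries of that group. The p-values measure the spread between samples that the labels call biological replicates.

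Large rises took up a larger share of these genes than of all genes. Genes at least 2-fold higher with an adjusted p under 0.05 numbered 12, 25 and 29 at 10, 15 and 30 min and 29 after H2O2, or 13%, 27.2%, 31.5% and 31.5% of those tested. Among all genes tested these shares were 4.6%, 5.87%, 6.83% and 6.58%. The subtelomeric counts were made without leaving out the 2 higher genes at 15 min, 1 at 30 min and 1 after H2O2 that were tested only because of the libraries of that group. For other protein-coding genes of the same level, set in 5 bins of mean log2 CPM and weighted to the bins of the subtelomeric genes, the shares at least 2-fold higher were 4.48%, 5.42%, 6.02% and 5.37%. At least 2-fold lower were 2, 4 and 4 genes at the 3 times and 3 after H2O2, where 0.671%, 1.57%, 2.13% and 1.25% of all genes tested were. The median log2 fold change of the tested genes was 0.21, 0.58 and 0.46 at the 3 times and 0.29 after H2O2, and that of all genes lay between -0.01 and 0.00 throughout. Of the tested genes 61 have no copy of at least 90% identity in the set, and of these 9, 17 and 23 were at least 2-fold higher at the 3 times and 22 after H2O2. The 5 bins match the lowest levels poorly, since 68 of the 92 genes fall in the lowest bin with a median of 0.80 log2 CPM, against 3.27 for the others there. With 20 bins, added after seeing this, the shares at least 2-fold higher were 5.45%, 6.77%, 6.41% and 5.93%.

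**Figure D2:**
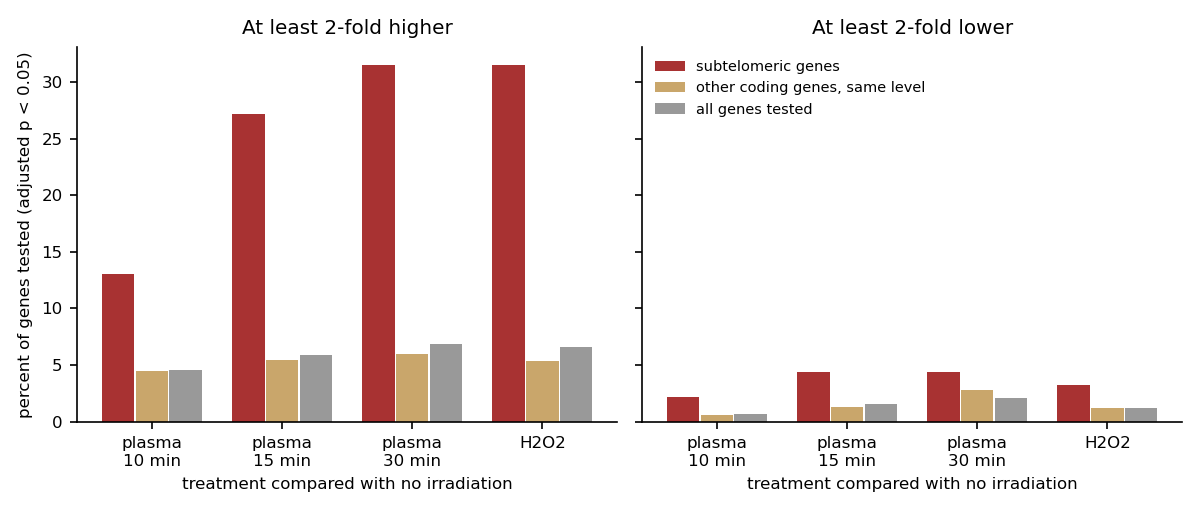
Percent of tested genes at least 2-fold higher (left) and lower (right) than without irradiation with an adjusted p under 0.05, for the 92 tested subtelomeric genes, other protein-coding genes of the same level (5 bins) and all 5214 genes tested. The subtelomeric bars of higher genes stand at 13%, 27.2%, 31.5% and 31.5%, and those of all genes at 4.6% to 6.83%.

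By position, higher genes lay at all 4 ends. At 30 min, where 31% of all genes tested were higher, 9 of 22 tested genes were higher at the left end of chromosome I, 14 of 25 at its right end, 12 of 24 at the left end of chromosome II and 6 of 21 at its right end. The share at the right end of chromosome II, 28.6%, was below that of all genes. It was above the 19.4% of other protein-coding genes of the same level as the 92 (20 bins). This end held as many lower as higher genes at 30 min, 6 each. Within 25 kb of an end 6 of the 15 tested genes were higher at 30 min, at 25 to 50 kb 11 of 25, at 50 to 75 kb 12 of 27, at 75 to 100 kb 11 of 22, and 1 of 3 beyond.

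**Figure D3:**
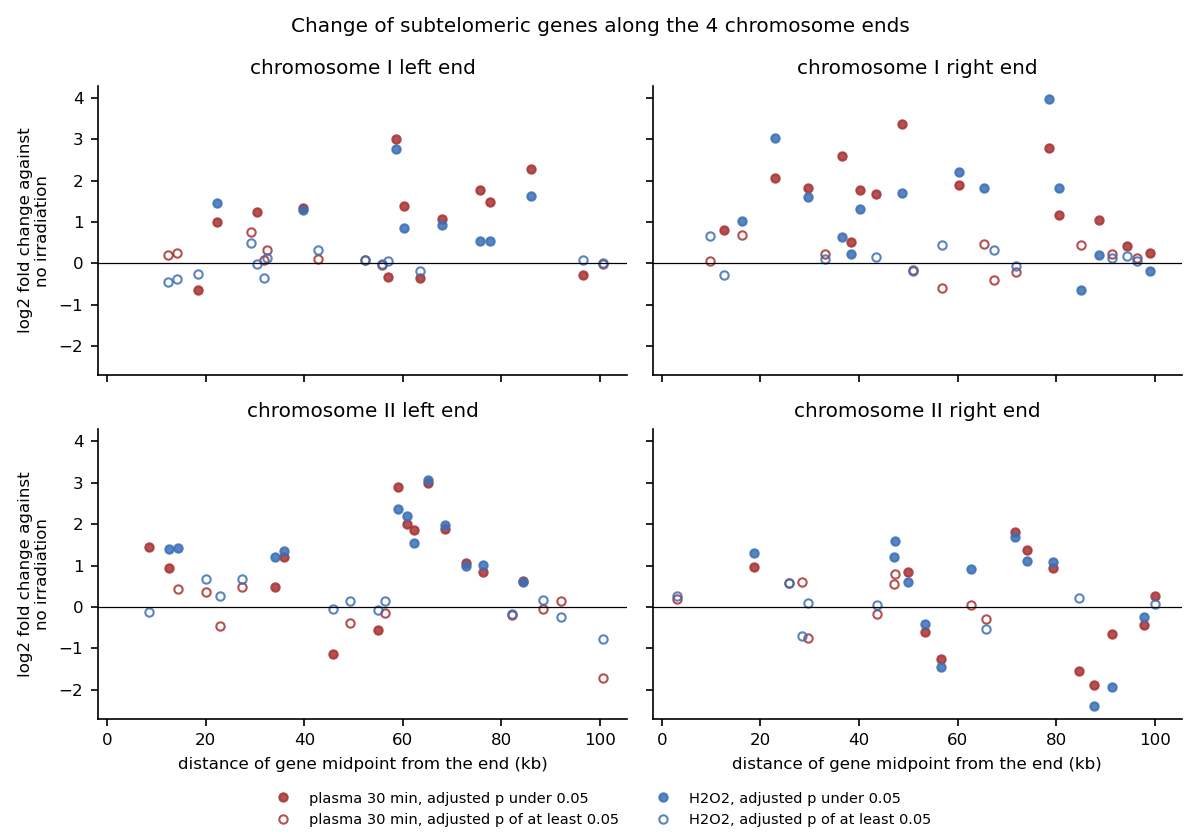
Log2 fold change of the 92 tested genes at 30 min after plasma and after H2O2, each against no irradiation, by distance of the gene midpoint from the chromosome end. Filled points have an adjusted p under 0.05. The 7 neighbours with raised levels 58.9 to 76.3 kb from the left end of chromosome II lie between 0.85 and 3.0 at 30 min, and the 4 neighbouring lower genes 84.6 to 97.9 kb from the right end of chromosome II between -1.88 and -0.42.

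The longest stretch of neighbours that changed together was at the left end of chromosome II, from eno102 to SPBPB21E7.09 (58136 to 77625). Its 7 tested members were all higher at 15 min, at 30 min and after H2O2, with log2 fold changes of 0.66 to 2.52, 0.85 to 3.0 and 0.99 to 3.07. The left-out gene SPBPB21E7.07 lies inside this stretch, and 2 genes of the set within it, SPBPB21E7.10 and SPBPB21E7.05, had too few counts to be tested. The stretch holds an enolase gene, a gene of the phosphoglycerate mutase and 6-phosphofructo-2-kinase family, a catechol O-methyltransferase gene (cmt2) and an asparaginase gene.

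The largest changes in it at 30 min and after H2O2 were those of cmt2, whose enzyme transfers methyl groups to catechols. cmt2 had 28.2, 32.4 and 26.2 CPM at 10 min, 108, 89.1 and 82.9 CPM at 15 min, 187, 174 and 164 CPM at 30 min and 193, 189 and 171 CPM after H2O2. Without irradiation cmt2 had 23.5, 21.8 and 20.3 CPM. All treated libraries lay above the 3 libraries without irradiation, those of 30 min and H2O2 about together and those of 10 min least. Its log2 fold changes were 0.40 (SE 0.11), 2.09 (SE 0.10) and 3.0 (SE 0.10) at the 3 times and 3.07 (SE 0.10) after H2O2 (edgeR adjusted p = 0.00789, 5.42e-10, 1.80e-11 and 6.65e-12). Without library b of the 10 min group the change at 10 min was 0.30 and no longer passed the test (edgeR adjusted p = 0.0563).

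eno102, a second enolase gene beside the main glycolytic one, had 8.0, 16.8 and 13.3 CPM at 10 min, 23.8, 25.9 and 23.2 CPM at 15 min, 30.8, 31.7 and 32.4 CPM at 30 min and 20.4, 25.8 and 19.8 CPM after H2O2. Without irradiation eno102 had 4.32, 5.04 and 3.2 CPM. No treated library overlapped the untreated ones, and the log2 fold change was highest at 30 min, 2.90 (SE 0.22) (edgeR adjusted p = 2.32e-08). Other annotated genes share 78.5% of the eno102 interval. The counting used no strand and assigns to neither gene a read that overlaps both, so the eno102 values rest on the unshared part. SPBPB21E7.11, of unknown role, stood at 10.6, 13.2 and 10.3 CPM at 10 min, 21.5, 21.6 and 21.6 CPM at 15 min, 24.3, 23.7 and 24.0 CPM at 30 min and 18.8, 19.7 and 20.1 CPM after H2O2. Without irradiation SPBPB21E7.11 had 4.82, 9.17 and 5.97 CPM. It was higher by 0.77, 1.70 and 1.85 at the 3 times and 1.56 after H2O2 on the log2 scale, with all treated libraries above the untreated ones. SPBPB21E7.02c, the sugar phosphate enzyme gene, was at lower levels, 2.08, 2.71 and 3.45 CPM at 10 min, 7.11, 7.12 and 6.14 CPM at 15 min, 6.84, 6.52 and 5.16 CPM at 30 min and 8.6, 7.06 and 5.44 CPM after H2O2. Without irradiation SPBPB21E7.02c had 1.47, 1.99 and 1.07 CPM. Its change at 10 min, 0.85, did not pass without library a or c of the untreated group or library c of the 10 min group (0.82, 0.68 and 0.63, edgeR adjusted p = 0.0598, 0.0702 and 0.1). The pseudogenes SPBPB21E7.06 and SPBPB21E7.08 rose by 1.89 and 1.07 on the log2 scale at 30 min, the second with 95.3% of its interval shared with other genes.

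**Figure D4:**
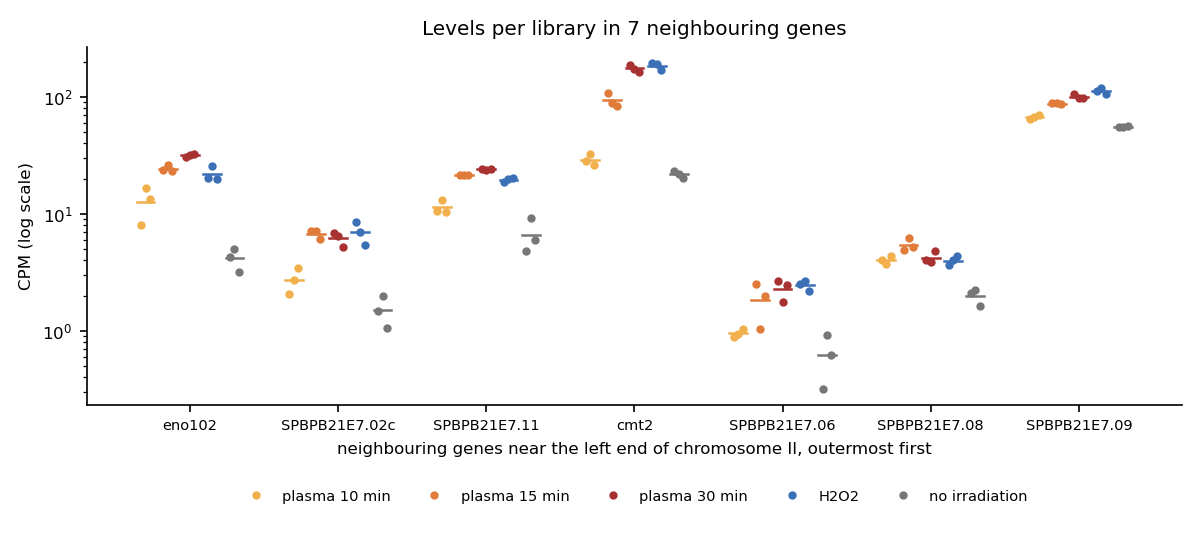
CPM per library (logarithmic axis) in the 7 tested neighbours from eno102 to SPBPB21E7.09, with points for libraries and bars for group means (n = 3 each). For cmt2 the libraries without irradiation lie between 20.3 and 23.5 CPM and those of 30 min and H2O2 between 164 and 193 CPM.

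Other tested neighbours also changed in the same direction. At the right end of chromosome I the 5 genes from SPAC186.02c to SPAC186.06 (5529851 to 5543031) were all higher at 30 min, with log2 fold changes of 0.51 to 3.37. At the left end of chromosome I the 4 genes from SPAC977.17 to shu1 (66219 to 86324) were higher by 1.07 to 2.27 at 30 min and by 0.55 to 1.63 after H2O2. SPAC977.17 codes for a channel protein of the MIP superfamily, and shu1 for a heme uptake protein of the cell surface. At the right end of chromosome II 4 neighbours from an agmatinase gene to pho1 (4434194 to 4449053) were lower at 30 min, with log2 fold changes of -1.88 to -0.42, and the next 3, fub2, nrg1 and say1 (4453054 to 4462134), were higher by 0.93 to 1.82 on the log2 scale. The change of fub2 did not pass without library c of the untreated group or library a or b of the 30 min group (0.64, 0.88 and 0.94, edgeR adjusted p = 0.121, 0.0678 and 0.0572).

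Among genes with enzyme products by the words of the annotation, 28 of 36 were tested, and 9, 15 and 15 were higher at 10, 15 and 30 min and 16 after H2O2, while 6, 6, 5 and 2 were lower. As given above, 21.9%, 27.1% and 31% of all genes tested were higher at the 3 times and 28.5% after H2O2, and 17%, 24.8%, 29% and 25.6% were lower. The gene with the largest change after H2O2 was mel1, which codes for a melibiase, an enzyme that splits galactose from the sugar melibiose. It had 2.33, 3.1 and 2.5 CPM at 10 min, 8.82, 6.09 and 5.97 CPM at 15 min, 6.54, 7.23 and 6.97 CPM at 30 min and 15.4, 17.3 and 14.3 CPM after H2O2. Without irradiation mel1 had 0.781, 1.43 and 0.754 CPM. Every treated library exceeded the untreated ones, and the 3 H2O2 libraries were the highest. The log2 fold changes were 1.40 (SE 0.26), 2.78 (SE 0.23) and 2.79 (SE 0.23) at the 3 times and 3.97 (SE 0.22) after H2O2 (edgeR adjusted p = 5.16e-04, 1.16e-07, 7.62e-08 and 1.05e-09).

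yhb1 codes for nitric oxide dioxygenase, a flavohemoglobin that turns nitric oxide into nitrate. It stood at 364, 354 and 359 CPM at 10 min, 915, 668 and 700.0 CPM at 15 min, 1308, 1102 and 1047 CPM at 30 min and 1434, 1453 and 1394 CPM after H2O2. Without irradiation yhb1 had 324, 281 and 319 CPM. At 10 min the libraries lay just above the untreated ones and the change of 0.22 (SE 0.11) did not pass the test (edgeR adjusted p = 0.122). At 15 and 30 min and after H2O2 the groups were well apart, with log2 fold changes of 1.30 (SE 0.11), 1.90 (SE 0.11) and 2.21 (SE 0.11) (edgeR adjusted p = 1.32e-07, 2.01e-09 and 5.10e-10).

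SPAC186.06, which the annotation calls an isomerase, went in opposite directions at the first and the last time. It had 4.21, 5.42 and 4.25 CPM at 10 min, 13.6, 15.1 and 13.3 CPM at 15 min, 55.7, 43.7 and 37.5 CPM at 30 min and 12.8, 11.4 and 11 CPM after H2O2. Without irradiation SPAC186.06 had 6.47, 8.0 and 8.36 CPM. The 10 min libraries lay below, and those of the 3 other treatments above, all untreated libraries. The log2 fold changes were -0.71 (SE 0.17), 0.89 (SE 0.15) and 2.59 (SE 0.15) at the 3 times and 0.63 (SE 0.15) after H2O2 (edgeR adjusted p = 0.00368, 1.84e-04, 1.38e-09 and 0.00302).

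say1, whose product removes acetyl groups from sterols, had 26.9, 31.9 and 26.8 CPM at 10 min, 29.8, 35.4 and 36.9 CPM at 15 min, 35.7, 38.1 and 40.2 CPM at 30 min and 36.9, 34.5 and 33.2 CPM after H2O2. Without irradiation say1 had 10.2, 13.8 and 8.04 CPM. All treated libraries were above the untreated ones, and the log2 fold change was already 1.40 at 10 min and 1.82 at 30 min. pcm2, whose enzyme repairs damaged aspartyl residues of proteins, was not changed past the threshold at 10 min (-0.07) and higher by 1.16 at 15 min, 1.18 at 30 min and 1.83 after H2O2. SPAC186.02c, a hydroxyacid dehydrogenase gene with few counts, had 0.842, 1.22 and 1.65 CPM at 10 min, 3.03, 3.46 and 2.96 CPM at 15 min, 5.11, 5.25 and 5.53 CPM at 30 min and 1.76, 1.31 and 1.92 CPM after H2O2. Without irradiation SPAC186.02c had 0.597, 0.459 and 0.44 CPM. Its log2 fold change at 30 min was 3.37 (SE 0.24) (edgeR adjusted p = 1.38e-08), with the 3 libraries of 30 min above all others.

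SPAC186.08c, an L-lactate dehydrogenase gene, which turns pyruvate and lactate into each other, had 1.24, 2.21 and 1.42 CPM at 10 min, 3.16, 2.68 and 3.05 CPM at 15 min, 2.68, 1.6 and 1.98 CPM at 30 min and 2.28, 1.64 and 1.44 CPM after H2O2. Without irradiation SPAC186.08c had 0.23, 0.866 and 0.691 CPM. Its log2 fold changes were 1.46 (SE 0.38), 2.34 (SE 0.35) and 1.83 (SE 0.37) at the 3 times and 1.6 (SE 0.37) after H2O2, each past the threshold. SPAC977.15, of a dienelactone hydrolase family, was lower at the 3 times, with 14.6, 14.4 and 14.4 CPM at 10 min, 13.2, 14.1 and 13.5 CPM at 15 min, 17, 13.6 and 15.3 CPM at 30 min and 17.8, 17.9 and 15.7 CPM after H2O2. Without irradiation SPAC977.15 had 21.6, 20.6 and 15.7 CPM. The changes were small, -0.42, -0.51 and -0.34 at the 3 times and -0.18 after H2O2 on the log2 scale, where the last did not pass the test (edgeR adjusted p = 0.198) and that of 30 min did not pass without library a or b of the untreated group or library b of the 30 min group (-0.25, -0.28 and -0.26, edgeR adjusted p = 0.0946, 0.0772 and 0.087).

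Both tested urea transporter genes had few counts. SPAC869.03c was higher after H2O2 with 2.28, 1.35 and 2.17 CPM, against 0.459, 0.713 and 0.44 CPM without irradiation, a log2 fold change of 1.82 (SE 0.31) (edgeR adjusted p = 1.53e-04). The other, SPBPB8B6.02c, had 2.87, 1.71 and 2.32 CPM at 10 min, 3.49, 2.84 and 2.66 CPM at 15 min, 1.49, 1.27 and 1.86 CPM at 30 min and 3.07, 3.34 and 3.37 CPM after H2O2. Without irradiation SPBPB8B6.02c had 3.49, 2.39 and 4.34 CPM. Its 30 min libraries lay below the untreated ones, with a log2 fold change of -1.14 (SE 0.25) (edgeR adjusted p = 9.96e-04), and H2O2 overlapped them (-0.05). At 10 min -0.54 did not pass the test (edgeR adjusted p = 0.0695), and with a replicate block by column letter -0.55 did (edgeR adjusted p = 0.0484).

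The galactose genes lie close together at the right end of chromosome II. gal7, whose enzyme transfers a uridyl group to galactose phosphate, was higher by 0.54, 0.40 and 0.84 at the 3 times and 0.60 after H2O2 on the log2 scale, with 51.8 ± 3.9 CPM at 30 min against 28.8 ± 5.57 CPM without irradiation. gal1, the galactokinase gene, passed no test of these 4, also at an unadjusted p or with DESeq2 (0.44, -0.08, -0.17 and 0.05), and gal10 passed after H2O2 (1.21), with 92.8% of its interval shared with other genes. The change of gal7 at 15 min did not pass without library c of the untreated group or library b of the 15 min group (0.29 and 0.32, edgeR adjusted p = 0.0558 and 0.0687), and that of gal10 did not pass without library a or c of the untreated group or library a, b or c of the H2O2 group (0.88, 0.82, 1.15, 1.14 and 1.33, edgeR adjusted p = 0.171, 0.133, 0.0916, 0.1 and 0.0534).

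Among the lower enzyme genes was SPBC8E4.03, which codes for agmatinase 2, an enzyme that splits agmatine into putrescine and urea. It had 152, 169.6 and 149.8 CPM at 10 min, 133, 123 and 129 CPM at 15 min, 217, 218 and 207 CPM at 30 min and 258, 242 and 230.4 CPM after H2O2. Without irradiation SPBC8E4.03 had 289, 283 and 289 CPM. The treated libraries lay below the untreated ones, furthest at 15 min, with log2 fold changes of -0.87 (SE 0.06), -1.16 (SE 0.06), -0.42 (SE 0.06) and -0.24 (SE 0.06) (edgeR adjusted p = 2.25e-08, 7.37e-10, 1.47e-05 and 0.00295). pan5, of the pantothenate pathway, was lower at 30 min and after H2O2, with log2 fold changes of -0.61 and -0.41. pho1, an acid phosphatase gene counted below with the regulators by its product words, was lower at the 3 times, with log2 fold changes of -1.01, -1.18 and -1.54, and did not pass after H2O2 (0.22), with 91.3% of its interval shared with other genes.

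Of 20 genes with a transport word in their product, 15 were tested, and 1, 3 and 3 were higher at 10, 15 and 30 min and 4 after H2O2, while 4, 1, 2 and 2 were lower. The shares of higher transport genes lay below those of all genes tested in these comparisons (21.9%, 27.1%, 31% and 28.5%), and all but the lower share at 10 min lay below the 17%, 24.8%, 29% and 25.6% of all genes that were lower. After H2O2 the share of higher transport genes, 4 of 15, was near that of all genes. SPAC977.17, a channel gene higher at 30 min and after H2O2, is not among the 15 and is counted below by the word family. The largest fall that passed the test was that of pho84, the inorganic phosphate transporter gene, at 6.54, 4.48 and 5.95 CPM at 10 min and 4.5, 5.17 and 4.04 CPM after H2O2, against 28.9, 17.3 and 25.3 CPM without irradiation. Both treated groups lay below every untreated library, and the log2 fold changes were -2.07 (SE 0.22) and -2.38 (SE 0.23) (edgeR adjusted p = 2.60e-06 and 4.04e-07). Other genes share 89.0% of the pho84 interval, and a read that overlaps both genes is counted for neither. These values therefore rest on the small unshared part, and the level of pho84 is uncertain.

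cat1, a transporter of arginine and lysine, had 153, 137 and 150.3 CPM at 10 min, 225, 209 and 212 CPM at 15 min, 234, 228 and 223 CPM at 30 min and 128, 123 and 129 CPM after H2O2. Without irradiation cat1 had 109.5, 93.4 and 125 CPM. The libraries of the 3 plasma times lay above the untreated ones, while those of H2O2 overlapped them. The log2 fold changes were 0.42 (SE 0.08), 0.98 (SE 0.08) and 1.06 (SE 0.08) at the 3 times and 0.21 (SE 0.08) after H2O2, the last of which did not pass without library a or b of the untreated group or library a, b or c of the H2O2 group (0.21, 0.12, 0.20, 0.23 and 0.20, edgeR adjusted p = 0.0808, 0.153, 0.0914, 0.0541 and 0.0946). At 30 min cat1 exceeded H2O2 by 0.85 (SE 0.08) (edgeR adjusted p = 2.19e-06). The amino acid permease gene nrg1 had 52.9, 56.3 and 51.6 CPM at 10 min, 83.0, 76.8 and 75.7 CPM at 15 min, 224, 166 and 161 CPM at 30 min and 169.6, 152 and 141 CPM after H2O2. Without irradiation nrg1 had 67.9, 77.2 and 68.0 CPM. It was lower at 10 min, -0.41 (SE 0.11), and higher at 30 min and after H2O2, 1.37 (SE 0.11) and 1.12 (SE 0.11) (edgeR adjusted p = 0.00754, 3.56e-08 and 4.09e-07). sul2, a sulfate transporter gene, was lower at 10 min with 51.4, 46.3 and 44.0 CPM, against 86.1, 62.6 and 80.3 CPM without irradiation, a log2 fold change of -0.69 (SE 0.19) (edgeR adjusted p = 0.01). The sodium-proton exchanger gene nhe1 and the fluoride channel genes fex1 and fex2 passed no edgeR test against no irradiation, with log2 fold changes between -0.15 and 0.24 (12 tests, none at an unadjusted p under 0.05 and none with DESeq2).

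None of the 4 glycoprotein genes, pfl6, pfl8, pfl9 and SPBC1348.08c, passed the edgeR test in any of the 4 comparisons (16 tests, 1 at an unadjusted p under 0.05 and 0 with DESeq2). Of these, pfl6 and SPBC1348.08c are 99.92% identical, so most of their reads cannot be assigned to 1 of them and their counts are uncertain. pfl9, the most abundant, stood at 12.3 ± 1.97 CPM at 30 min, against 13.7 ± 2.39 CPM without irradiation (SD, n = 3 each), a log2 fold change of -0.15 (SE 0.14). Of the 3 helicase genes 2 were tested, and the helicase-like gene SPAC212.06c was lower at 30 min, with a log2 fold change of -0.65 (edgeR adjusted p = 0.0375), which did not pass without library a, b or c of the untreated group or library a or c of the 30 min group (-0.67, -0.62, -0.63, -0.60 and -0.45, edgeR adjusted p = 0.0653, 0.0818, 0.0696, 0.0958 and 0.163).

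Of 6 genes with a regulator word, all tested, 4 are enzymes and 2 transcription factors, and 2, 3 and 2 were higher at 10, 15 and 30 min and 3 after H2O2, while 1, 2, 1 and 0 were lower. Over the same comparisons 21.9% to 31% of all genes tested were higher and 17% to 29% lower. A further 6 genes were set apart by the word family, 5 of them tested, and 3, 4 and 4 were higher at the 3 times and 4 after H2O2, with none lower in these edgeR tests. SPBC1348.12, which codes for a DNA-binding transcription factor, had 37.9, 38.8 and 35.7 CPM at 10 min, 43.9, 48.3 and 45.7 CPM at 15 min, 60.1, 53.7 and 55.0 CPM at 30 min and 62.6, 62.7 and 62.2 CPM after H2O2. Without irradiation SPBC1348.12 had 23.1, 29.0 and 21.0 CPM. All treated libraries exceeded the untreated ones, with log2 fold changes of 0.62 (SE 0.09), 0.91 (SE 0.09), 1.2 (SE 0.09) and 1.35 (SE 0.09) (edgeR adjusted p = 6.02e-05, 6.36e-07, 2.06e-08 and 6.24e-09). grt1 was lower at 15 min, -0.75 (SE 0.19), and passed no test at the other times or after H2O2. SPBPB2B2.06c, a phosphoprotein phosphatase gene, was higher at 15 min with 25.3, 17.3 and 18.2 CPM, and stood at 8.56, 5.52 and 5.89 CPM at 30 min, against 5.46, 8.05 and 5.65 CPM without irradiation. Its 15 min libraries were thus apart from the untreated ones and those of 30 min were not, and 30 min was lower than 15 min, with a log2 fold change of -1.6 (SE 0.20) (edgeR adjusted p = 4.24e-05).

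Among the 59 genes that fit none of these words, 32 were tested, and 9, 15 and 17 were higher at the 3 times and 13 after H2O2, while 1, 2, 3 and 3 were lower. Of all genes tested 21.9%, 27.1%, 31% and 28.5% were higher and 17%, 24.8%, 29% and 25.6% lower in the same comparisons. The pseudogene SPAC977.13c had 12.5, 16.3 and 9.45 CPM at 10 min, 29.5, 29.5 and 27.5 CPM at 15 min, 45.1, 46.4 and 44.4 CPM at 30 min and 40.4, 38.3 and 35.8 CPM after H2O2. Without irradiation SPAC977.13c had 4.13, 8.56 and 4.08 CPM. It was higher by 1.17 (SE 0.23), 2.36 (SE 0.22) and 3.01 (SE 0.21) at the 3 times and 2.76 (SE 0.21) after H2O2 (edgeR adjusted p = 7.63e-04, 3.27e-07, 1.38e-08 and 4.51e-08), and no treated library overlapped an untreated one. SPAPJ695.02, of unknown role, had 32.3, 31.7 and 24.6 CPM at 10 min, 41.1, 49.1 and 44.8 CPM at 15 min, 122, 89.5 and 86.5 CPM at 30 min and 42.9, 44.5 and 38.7 CPM after H2O2. Without irradiation SPAPJ695.02 had 33.1, 26 and 27.1 CPM. The 10 min libraries overlapped the untreated ones, and those of 30 min were the highest, by 1.78 (SE 0.14) on the log2 scale (edgeR adjusted p = 2.98e-08).

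3 uncharacterised genes showed changes of similar size after all 4 treatments. SPAC212.04c, at 22.2 kb from the left end of chromosome I, had 18.3, 17.3 and 13.1 CPM at 10 min, 17.8, 20.7 and 22.6 CPM at 15 min, 15.2, 13.2 and 14.5 CPM at 30 min and 19.8, 19.0 and 20.2 CPM after H2O2. Without irradiation SPAC212.04c had 6.84, 7.69 and 6.85 CPM. SPAC186.04c at the right end of the same chromosome was higher by 1.39, 1.51, 1.77 and 1.31 on the log2 scale, and SPBCPT2R1.04c at the right end of chromosome II by 1.01, 1.33, 0.96 and 1.31, against 1.18, 1.52, 1.0 and 1.46 for SPAC212.04c. For all 3 the treated and untreated libraries were apart. The first 2 have no near-identical copy, and SPBCPT2R1.04c is 99.89% identical to SPAC212.01c. The promoter of SPAC212.04c is, however, the same as that of SPAC750.06c, which is 99.67% identical to SPBCPT2R1.04c over the aligned stretch.

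ecl3, of a family named for extending chronological lifespan, fell after H2O2, with 5.1, 4.09 and 4.39 CPM at 10 min, 1.64, 3.25 and 2.75 CPM at 15 min, 1.96, 2.15 and 1.98 CPM at 30 min and 0.854, 0.967 and 0.674 CPM after H2O2. Without irradiation ecl3 had 3.08, 2.5 and 4.08 CPM. The H2O2 libraries lay below all others, with a log2 fold change of -1.93 (SE 0.27) against no irradiation and of 2.44 (SE 0.26) for 10 min against H2O2 (edgeR adjusted p = 2.10e-05 and 2.88e-06). At 30 min the change of -0.65 no longer passed without library c of the untreated group or library a, b or c of the 30 min group (-0.46, -0.62, -0.69 and -0.63, edgeR adjusted p = 0.125, 0.069, 0.0501 and 0.0692). SPBPB2B2.08, of unknown role, was lower at 30 min and after H2O2, with log2 fold changes of -1.25 and -1.46. isp3, a spore wall protein gene, was lower at the 3 times (-0.43, -0.83 and -0.29 on the log2 scale), with 56.2% of its interval shared, and its change at 30 min did not pass without library b of the untreated group or library b or c of the 30 min group (-0.16, -0.28 and -0.24, edgeR adjusted p = 0.179, 0.0602 and 0.0922).

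Copies of a gene at different ends did not always show the same values. 64 of the 134 genes have a copy of at least 90% identity within the set, and only 31 of these were tested, against 61 of the 70 without one, and reads that map to several places are not counted at the authors' settings. The aldo-keto reductase genes SPAC750.01 and SPAC977.14c are 92.7% identical over the stretch that blastn aligned and 82.4% over the whole gene, while their promoters are 53.9% identical. Neighbouring promoters in the set that are not copies have a median identity of 51.4% in the same alignment (106 pairs). SPAC750.01 had 17, 17.7 and 17.9 CPM at 10 min, 47.2, 31.5 and 30.2 CPM at 15 min, 60.0, 63.2 and 59.3 CPM at 30 min and 128, 116 and 116 CPM after H2O2. Without irradiation SPAC750.01 had 14.1, 14.3 and 15.5 CPM. For SPAC977.14c the values were 1279, 1359 and 1245 CPM at 10 min, 1405, 1446 and 1489 CPM at 15 min, 2495, 2634 and 2458 CPM at 30 min and 1783, 1752 and 1696 CPM after H2O2. Without irradiation SPAC977.14c had 895, 1122 and 881 CPM. H2O2 gave the highest libraries for SPAC750.01, and 30 min after plasma gave them for SPAC977.14c. SPAC750.01 was higher by 2.06 (SE 0.13) at 30 min and 3.04 (SE 0.13) after H2O2, SPAC977.14c by 1.39 (SE 0.09) at 30 min and 0.85 (SE 0.09) after H2O2. Between the treatments, 30 min was lower than H2O2 for SPAC750.01 and higher for SPAC977.14c, with log2 fold changes of -0.98 (SE 0.11) and 0.54 (SE 0.08) (edgeR adjusted p = 1.17e-05 and 2.36e-04). The difference between the 2 genes itself was not tested.

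Asparaginases, which turn asparagine into aspartate and ammonia, are coded by 4 genes of the set that form 2 pairs. SPAC977.12 and SPBPB8B6.05c share 95.3% of their letters over the aligned stretch and over the whole gene, and their whole promoter. SPAC977.12 had 50.4, 49.3 and 47.3 CPM at 30 min, against 59.4, 67.9 and 57.6 CPM without irradiation, and SPBPB8B6.05c had 30.6, 32.6 and 25.9 CPM at 30 min, against 42.4, 46.3 and 42.3 CPM without irradiation. In both the 30 min libraries lay below the untreated ones, with log2 fold changes of -0.33 (SE 0.07) and -0.56 (SE 0.08) (edgeR adjusted p = 9.64e-04 and 1.32e-05). At 15 min SPAC977.12 was higher than without irradiation, by 0.29. The other pair, SPAC186.03 and SPBPB21E7.09, is 96.3% identical over the aligned stretch and 90.8% over the whole gene, with promoters that are 59.5% identical. SPBPB21E7.09 had 105, 97.2 and 96.8 CPM at 30 min and 113, 119 and 107 CPM after H2O2, against 55.1, 54.8 and 56.7 CPM without irradiation, and SPAC186.03 had 1.55, 1.49 and 1.68 CPM at 30 min and 0.911, 0.29 and 0.481 CPM after H2O2, against 0.505, 0.51 and 0.44 CPM without irradiation. Both were higher at 30 min, by 0.85 (SE 0.05) and 1.67 (SE 0.32). After H2O2 SPBPB21E7.09 was higher by 1.02 (SE 0.05), and SPAC186.03, with few counts, had 0.16 (SE 0.38) (edgeR adjusted p = 1.72e-10 and 0.747).

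**Figure D5:**
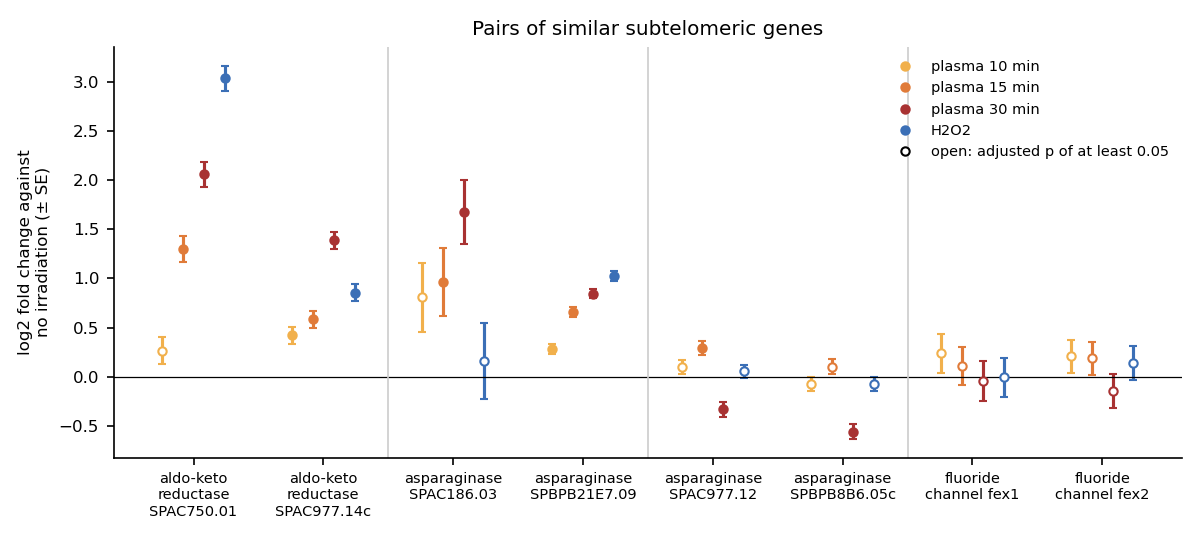
Log2 fold change against no irradiation with its standard error for 4 pairs of subtelomeric genes that are at least 90% identical over the aligned stretch. Open points have an adjusted p of at least 0.05. SPAC750.01 reaches 3.04 after H2O2 and SPAC977.14c 0.85, while both asparaginase genes with the same promoter lie below 0 at 30 min. Of these 2, SPAC977.12 lies at 0.29 at 15 min. The points of fex1 and fex2, whose promoters are 53.5% identical, are all open. Whether like promoters go with like changes was not tested.

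Between the treatments themselves, the 30 min libraries stood above those of 10 min. 33 of the 92 genes were higher and 6 lower at 30 min than at 10 min, where 19.9% of all genes tested were higher and 18.9% lower. These counts are from the fit without a replicate block, though the same-letter libraries of these 2 groups correlated. They thus ignore a possible pairing, and counts with a block are not given here for this comparison. 22 were higher and 4 lower at 15 than at 10 min (all genes 7.67% and 5.96%), and 23 were higher and 10 lower at 30 than at 15 min (15.1% and 13.7%). The largest rises of 30 over 10 min were those of SPAC186.06, 3.31 (SE 0.16), and cmt2, 2.60 (SE 0.10) (edgeR adjusted p = 1.51e-09 and 2.80e-10).

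Against H2O2, 10 min was higher for 7 genes and lower for 33 (all genes 14.8% and 17.5%), 15 min higher for 15 and lower for 22 (9.9% and 13.2%), and 30 min higher for 19 and lower for 19 (15.3% and 16.7%). At 30 min mel1, the urea transporter gene SPBPB8B6.02c and SPAC750.01 were the furthest below H2O2 among genes with a mean count of at least 50, with log2 fold changes of -1.18, -1.09 and -0.98. SPAC186.06, ecl3 and ftm1, a gene for a membrane protein of the repeated ftm family, were the furthest above it, by 1.96, 1.29 and 1.27. yhb1 was lower at 30 min than after H2O2, with a log2 fold change of -0.31 (SE 0.11) (edgeR adjusted p = 0.0404).

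Promoter words were counted in the 300 bases from 250 before to 50 after each start, on both strands, for the 120 of the 134 genes with a promoter in RefSeq's annotation. TTACGT stood in 39 of them (32.5%), against 14.6% of all 5112 promoters, and in 29.7% of the 64 without a near-identical copy. SPAC212.04c is among the 64, though its promoter is the same as that of SPAC750.06c. Among the 37 promoters of genes higher at 30 min its share was 29.7%, and among the 83 others 33.7%, without a test of the difference. TGACGT stood in 8.33% (all promoters 5.91%), and ACGCGT, the site of the MBF factor of the cell cycle, in 0.833% (3.25%). CCCCTC, bound by Rst2 and Scr1, factors of the response to the carbon source, stood in 0 of 120 (2.11%). TTACGT and TGACGT can overlap in the letters ACGT that they share, copies share promoters, and a word in these letters is a description of the sequence alone.

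At the inner limits of the windows the genes just inside were pfl8 and SPAC922.04 on chromosome I and SPBPB10D8.07c and SPBC8E4.04 on chromosome II. SPAC922.04, of unknown role, was abundant, with 1099, 1117 and 1024 CPM at 10 min, 944, 985 and 1006 CPM at 15 min, 1192, 1229 and 1247 CPM at 30 min and 898, 951 and 866 CPM after H2O2. Without irradiation SPAC922.04 had 1021, 1084 and 983 CPM. It was higher at 30 min, 0.25 (SE 0.06), and lower after H2O2, -0.19 (SE 0.06) (edgeR adjusted p = 0.00348 and 0.0223), and the second did not pass without library b of the untreated group or library a or c of the H2O2 group (-0.14, -0.18 and -0.16, edgeR adjusted p = 0.0865, 0.0626 and 0.0939). The next gene beyond it, SPAC922.03, stood at 83.7 ± 2.50 CPM at 30 min, against 88.4 ± 0.273 CPM without irradiation (SD, n = 3 each), and that beyond pfl8 was pdc101, a pyruvate decarboxylase gene, at 5041 ± 370.0 CPM at 30 min, against 6193 ± 521 CPM without irradiation. On chromosome II the next genes beyond were SPBC359.01, an amino acid permease gene, at 61.0 ± 5.54 CPM at 30 min, against 52.1 ± 2.18 CPM without irradiation, and SPBC8E4.05c, a fumarate lyase gene, at 17.4 ± 1.53 CPM at 30 min, against 10.2 ± 0.780 CPM without irradiation (SD, n = 3 each). SPBPB10D8.07c, a transporter gene, varied between single libraries, with 1.49, 1.44 and 0.851 CPM at 10 min, 14.1, 1.55 and 2.02 CPM at 15 min, 1.61, 1.21 and 3.84 CPM at 30 min and 1.48, 10.2 and 0.818 CPM after H2O2. Without irradiation SPBPB10D8.07c had 1.47, 0.968 and 20.4 CPM. It passed no test of the 4 with edgeR, also at an unadjusted p, and DESeq2 gave no adjusted p for it. Over the aligned stretches SPBPB10D8.07c is identical to SPBPB10D8.04c, SPBPB10D8.05c and SPBPB10D8.06c, so its counts are uncertain.

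1 untreated library stood apart for the heat shock gene hsp104, at 209, 737 and 185 CPM in libraries a, b and c. The same library b was the highest of the 3 for 37 of the 92 tested subtelomeric genes and for 20 of the 41 that were higher at 30 min, against 39.6% of the other protein-coding genes. Without it the genes higher at 30 min numbered 42 and those lower 10.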

How the data were processed

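RNA was sequenced from 15 libraries of fission yeast, 3 in each of 5 groups. The deposited values are raw counts of reads per gene, made by the authors with featureCounts 2.0.1 over transcripts, per the file headers, which set neither strand nor an option that counts reads with several places or over several genes. HISAT2 2.2.1 and SAMtools 1.13 appear in the submitters' processing notes, and the build label there does not name a fission yeast assembly.

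Genes kept by filterByExpr (5214) were fitted with the edgeR 4.0.16 quasi-likelihood test (R 4.3.3, TMM scaling, all 15 libraries), with Benjamini-Hochberg adjustment and a threshold of 0.05, and the steps were tested on simulated data. Names, products, promoters and gene sequences came from RefSeq ASM294v3, and copies from blastn (BLAST 2.17.0) of gene sequences. Genes were named mostly by size: the 8 highest and 8 lowest past the threshold against no irradiation, with no overlap of groups, the 3 highest and 3 lowest of other comparisons (a mean count of at least 50 in both), the genes at the window limits, tlh1 and tlh2, and the extremes of level. Others were chosen after their values were seen, for their position, role or copies. The genes and lists were chosen with earlier results of these data known. Alternatives were RLE, total counts, DESeq2 1.42.0, other filters, 2 groups only, left-out libraries and a replicate block by column letter. At 10 min against no irradiation the deviations of all 3 same-letter pairs correlated at over 0.1 (0.206 to 0.310). The same held for 30 against 10 min (0.124 to 0.227). By this check the libraries of both comparisons may be paired, though no label ties the letters to a shared culture or day. In the other comparisons not all 3 pairs did so. Unless a block is named, the values given are from the fit without one.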

Additional observations from a re-analysis of the deposited data

Results flagged for a closer look

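For 6 genes 2 treatments changed the level in opposite directions relative to no irradiation, each past the threshold, and the difference between the treatments passed it too (edgeR, Benjamini-Hochberg over all genes tested). The largest were those of SPAC186.06, the isomerase gene. It was -0.71 on the log2 scale at 10 min and higher at the other 2 times and after H2O2, and the difference was 1.6 for 15 against 10 min, 3.31 for 30 against 10 min and -1.34 for 10 min against H2O2 (edgeR adjusted p = 1.35e-05, 1.51e-09 and 1.35e-05). The 3 libraries of 10 min lay below the 9 of the other treatments.

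For nrg1, the amino acid permease gene, the difference was 1.78 for 30 against 10 min and -1.53 for 10 min against H2O2 (edgeR adjusted p = 1.39e-08 and 3.52e-08). The aldo-keto reductase gene SPBC8E4.04 was lower at 10 and 15 min (-0.44 and -0.39) and higher at 30 min (0.27), and 30 min exceeded 15 min by 0.66 and 10 min by 0.71 (edgeR adjusted p = 8.84e-06 and 1.53e-06). gdt1, whose product is a GDT1-like protein, was lower at 15 min (-0.19) and higher at 30 min and after H2O2 (0.51 and 0.24), a difference of 0.70 for 30 against 15 min and of -0.43 for 15 min against H2O2 (edgeR adjusted p = 6.67e-06 and 3.30e-04). Its change at 15 min did not pass without library a or c of the untreated group or library a, b or c of the 15 min group (-0.14, -0.16, -0.16, -0.21 and -0.20, edgeR adjusted p = 0.159, 0.0966, 0.114, 0.0563 and 0.0586).

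The asparaginase gene SPAC977.12 was higher at 15 min and lower at 30 min (0.29 and -0.33), a difference of -0.63 for 30 against 15 min (edgeR adjusted p = 2.15e-05). SPAC922.04 was higher at 30 min and lower after H2O2, with a difference of 0.43 for 30 min against H2O2 (edgeR adjusted p = 1.22e-04). The untreated libraries are shared by all these comparisons.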

How the results depend on the processing

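The counts of higher and lower subtelomeric genes in the 4 comparisons with no irradiation stayed within 1.5 times under RLE size factors, total counts, DESeq2, both other filters on low counts and without each library in turn, and so did those of 30 min against 10 min and H2O2 where run (other filters were not). 3 counts at 15 min moved further under other alternatives. The 11 lower genes became 7 when only the 2 groups compared were fitted, and 7 without genes that other genes overlap over at least 50% of their interval. The 40 higher genes became 26 without those that have a near-identical copy, which leaves 61 of the 92 tested (chosen after seeing the data). Without each library in turn the genes higher numbered 21 to 27 at 10 min, 37 to 41 at 15 min, 37 to 42 at 30 min and 36 to 39 after H2O2. Of 187 gene values past the threshold, recomputed 2422 times, none changed direction and 157 of these recomputed values missed the threshold.

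Deviations of libraries with the same column letter correlated at -0.113 to 0.310, with 17 of 30 pairs over 0.1, and the labels tie the letters to no shared culture or day. A replicate block by letter gave 24, 40, 41 and 40 higher and 12, 10, 13 and 7 lower genes at 10, 15 and 30 min and after H2O2. At 10 min it changed 2 calls, those of SPAC869.01, lower without it (-0.75, edgeR adjusted p = 0.0391) and not past the threshold with it (-0.75, edgeR adjusted p = 0.0507), and of SPBPB8B6.02c, as given above.

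Of the 42 untested genes 33 have a near-identical copy. The filter keeps a gene that reaches enough counts in 1 group alone, so the tested genes do not stand for all 134. Total counts in place of TMM moved the median of all genes by -0.07 (log2) at 30 min and by less elsewhere.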

Other observations

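Values at 15 min stood out for 3 genes of unknown or membrane-protein roles. SPAC977.18 had 1.39, 1.33 and 1.61 CPM at 10 min, 4.41, 2.68 and 3.65 CPM at 15 min, 1.66, 1.05 and 0.901 CPM at 30 min and 0.683, 1.21 and 0.77 CPM after H2O2. Without irradiation SPAC977.18 had 1.06, 1.27 and 1.07 CPM. Its log2 fold change was 1.64 (SE 0.25) at 15 min (edgeR adjusted p = 5.62e-05). SPBPB2B2.18 had 0.0991, 0.166 and 0.189 CPM at 10 min, 1.18, 1.86 and 1.76 CPM at 15 min, 0.119, 0.331 and 0.12 CPM at 30 min and 0.398, 0.58 and 0.0962 CPM after H2O2. Without irradiation SPBPB2B2.18 had 0.367, 0.153 and 0.503 CPM. ftm2, which codes for a protein with transmembrane helices, had 0.149, 0.387 and 0.378 CPM at 10 min, 0.658, 0.67 and 0.687 CPM at 15 min, 0.238, 0.166 and 0.0601 CPM at 30 min and 0.285, 0.0483 and 0.0962 CPM after H2O2. Without irradiation ftm2 had 0.0918, 0.051 and 0.251 CPM. SPBPB2B2.18 and ftm2 passed the filter on low counts only through the libraries of 15 min, so their values are a description with no test. SPAC977.18 and SPBPB2B2.18 are 98.1% identical over the aligned stretch. ftm2 is identical to ftm3 over the aligned stretch, so its counts are uncertain. These 3, SPBC1348.04 and SPAC977.06 were chosen after their values were seen.

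Others changed at 30 min or after H2O2. SPAPJ695.01c, the neighbour of SPAPJ695.02, had 2.73, 2.54 and 2.32 CPM at 10 min, 2.5, 3.46 and 2.49 CPM at 15 min, 7.97, 7.84 and 6.67 CPM at 30 min and 4.61, 3.82 and 3.46 CPM after H2O2. Without irradiation SPAPJ695.01c had 2.48, 2.8 and 2.83 CPM. It was higher by 1.47 (SE 0.16) at 30 min and 0.55 (SE 0.17) after H2O2 on the log2 scale (edgeR adjusted p = 1.19e-06 and 0.0118). The second did not pass without library a of the untreated group or library a of the H2O2 group (0.49 and 0.43, edgeR adjusted p = 0.051 and 0.0615). The methyltransferase gene SPBC1348.04 was higher by 1.32 at 15 min, 0.94 at 30 min and 1.41 after H2O2, while 0.04 at 10 min did not pass. Its change at 30 min did not pass without library a or b of the untreated group or library c of the 30 min group (0.76, 0.85 and 0.53, edgeR adjusted p = 0.136, 0.0936 and 0.256). SPAC977.06 was higher by 1.22, 1.30 and 1.34 at the 3 times and 1.29 after H2O2, with a mean count of 14.4 per library. SPBC1348.04 and SPAC977.06 each have copies of over 99% identity in the set, so their counts are uncertain too.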
